A study of Mus musculus with 6 samples.

Results

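The miR-23/27/24 family is encoded by a pair of paralogous microRNA clusters, a and b, and the rule that defined it here was a match of the mature name to 10 strands, which are rows of the 1907 mature microRNAs in the deposited liver table. The strands were mmu-miR-23a-3p, mmu-miR-27a-3p, mmu-miR-27a-5p and mmu-miR-24-2-5p of cluster a, mmu-miR-23b-3p, mmu-miR-23b-5p, mmu-miR-27b-3p, mmu-miR-27b-5p and mmu-miR-24-1-5p of cluster b, and mmu-miR-24-3p, which both clusters encode. The species prefix mmu (mouse) is left out from here on. No measured value was used to choose them. The study asked how feeding soy affects liver microRNAs, and sequenced small RNA of 6 livers, each of a different male mouse of mixed strain background whose age the labels give as 12 weeks. The soy group (3 mice) ate for 4 weeks a granulated chow of 75% regular food and 25% soy bean powder, and the regular group (3 mice) ate the regular granulated food alone. The labels name no mutant allele and no drug in either group.

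A microRNA hairpin is cut into a duplex, and usually a single strand of it, the guide, is kept in the silencing complex, where its seed (bases 2 to 8) pairs with messenger RNAs and lowers their translation or stability. The other strand, the passenger, is mostly degraded. The hairpins of each cluster lie close together and are thought to be cut from a common primary transcript. In liver, miR-27b is known as a regulator of lipid metabolism genes, miR-24 has been tied to hepatic lipid storage through Insig1, and miR-23 and miR-27 are also known for their roles in endothelial cells and vessel growth.

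Cluster a spans 404 bases at chr8:84208518-84208921 on the plus strand (GRCm38, GENCODE M21), in the order Mir23a, Mir27a and Mir24-2, with gaps of 79 and 56 bases. It lies outside annotated protein-coding genes, and the noncoding RNA gene Gm26532 overlaps the last 2 bases of Mir24-2. Cluster b spans 792 bases at chr13:63300484-63301275 on the plus strand, in the order Mir23b, Mir27b and Mir24-1, with gaps of 154 and 423 bases. It lies inside 2010111I01Rik (Aopep, an aminopeptidase gene) on the same strand and inside an intron of Fancc on the opposite strand. Mir23b is intronic in 2010111I01Rik, and Mir27b and Mir24-1 also overlap exons of transcripts of that gene annotated as nonsense-mediated decay targets or as noncoding. These positions describe the annotation, and the build used for the deposited counts is not given in the sources used here.

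The mature sequences of 9 of the 10 strands were found by name in RefSeq (GRCm38.p6). miR-23b-3p was not among them. The guide strands are shown first because they carry most of the family's reads, with the seed, which differs between miR-23, miR-27 and miR-24, in capitals and each sequence 5′ to 3′.
miR-23a-3p: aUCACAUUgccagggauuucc
miR-27a-3p: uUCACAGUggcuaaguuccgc
miR-27b-3p: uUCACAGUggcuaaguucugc
miR-24-3p: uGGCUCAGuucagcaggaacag
The passenger strands follow, because their levels and ratios are compared below, again with bases 2 to 8 in capitals.
miR-27a-5p: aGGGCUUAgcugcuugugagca
miR-27b-5p: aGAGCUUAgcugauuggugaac
miR-24-2-5p: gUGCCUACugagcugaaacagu
miR-24-1-5p: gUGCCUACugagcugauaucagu
miR-23b-5p: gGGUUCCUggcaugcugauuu

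miR-27a-3p and miR-27b-3p share the seed UCACAGU, which no other mature microRNA of the RefSeq table has, and they differ at 1 of 21 bases, C19U (from miR-27a-3p to miR-27b-3p, counted from 1 at the 5′ end). Reads that miss their last bases therefore cannot be told apart between them, and their counts are uncertain to that extent. The passengers miR-27a-5p and miR-27b-5p differ at 8 of 22 bases, among them G3A within the seed. miR-24-2-5p and miR-24-1-5p share the seed UGCCUAC and differ at 5 of the first 22 bases, all from A17U onwards. miR-24-3p is the same sequence in both clusters, so its reads cannot be divided between them.

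The hairpins of miR-27 and miR-24 are printed with their mature arms in capitals (passenger at the 5′ side, guide at the 3′ side), since the balance of arms is part of the results. Mir27a lies at chr8:84208672-84208758, Mir24-2 at chr8:84208815-84208921, Mir27b at chr13:63300712-63300784 and Mir24-1 at chr13:63301208-63301275, all on the plus strand.
Mir27a: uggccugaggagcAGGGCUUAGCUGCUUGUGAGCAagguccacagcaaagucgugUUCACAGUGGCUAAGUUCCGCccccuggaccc
Mir27b: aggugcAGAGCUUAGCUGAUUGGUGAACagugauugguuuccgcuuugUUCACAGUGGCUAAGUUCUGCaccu
Mir24-2: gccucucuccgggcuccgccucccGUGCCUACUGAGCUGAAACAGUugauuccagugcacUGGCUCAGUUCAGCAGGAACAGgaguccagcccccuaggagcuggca
Mir24-1: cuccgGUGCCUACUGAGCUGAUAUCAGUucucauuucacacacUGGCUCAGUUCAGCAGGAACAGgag

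The libraries held 10032094 to 12762916 microRNA reads in soy and 5727546 to 10325712 in regular livers, the lowest total being that of regular replicate 3. The tissue label was checked against its markers. Hepatocyte microRNAs (miR-122, miR-192, miR-194 and miR-148a strands) summed to 286809 to 335117 CPM in soy livers and 267534 to 351095 CPM in regular livers, where CPM is the read count divided by the library size in units of 1e+06 reads, scaled between libraries by trimmed mean of M values (TMM). This sum was led by miR-192-5p, at 208991 ± 24549 CPM (SD, n = 3) in soy livers and 194140 ± 31736 CPM in regular livers. miR-148a-3p came next, at 70060 ± 5031 CPM in soy livers and 94764 ± 17732 CPM in regular livers. miR-122-5p was at 18493 ± 3429 CPM in soy livers and 23917 ± 3737 CPM in regular livers. Muscle and neural microRNAs summed to 3.42 to 12.0 CPM in soy livers and 4.90 to 8.64 CPM in regular livers, with 2 of 5 at 0 in every library and miR-133a-3p and miR-1a-3p the most abundant of them.

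miR-27b-3p, a guide of cluster b, dominated the family under both diets. It was the 10th most abundant microRNA of the table and made up 92.9% to 93.9% of the family's reads in soy and 93.0% to 94.9% in regular livers. Its level was 21961, 21384 and 20352 CPM in soy replicates 1 to 3, against 20188, 18162 and 21482 CPM in regular replicates 1 to 3. The groups overlapped, because regular replicate 3 lay above 2 of the 3 soy livers. The whole family took 2.23% ± 0.0736 (SD, n = 3) of the microRNA reads in soy and 2.17% ± 0.288 (SD, n = 3) in regular livers.

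**Figure D1:**
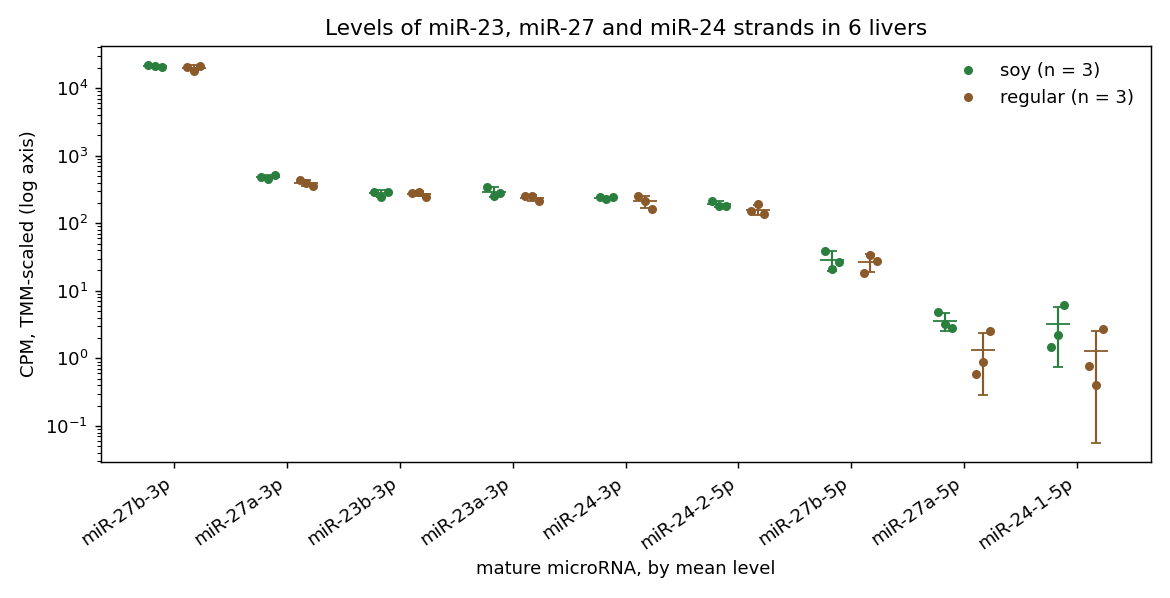
Level of each tested strand in CPM on a log axis, one dot per liver, with soy left of regular and the mean ± SD of each group (n = 3) as a horizontal mark and bar. miR-27b-3p lies near 20588 CPM, 46.9 times above miR-27a-3p, and the weakest passengers miR-27a-5p and miR-24-1-5p lie near 2.47 and 2.28 CPM.

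The remaining abundant strands formed a narrow band far below miR-27b-3p. miR-27a-3p, the guide of cluster a with the same seed as miR-27b-3p, was at 476.0, 454.4 and 522.6 CPM in soy, against 433.3, 390.7 and 354.3 CPM in regular livers. Every soy liver was above every regular liver for this strand. miR-23a-3p, a guide that in human cells is known to repress glutaminase, was at 346.7, 251.8 and 281.5 CPM in soy, against 256.3, 250.5 and 210.3 CPM in regular livers. Soy replicate 1 was the highest, and the groups overlapped because soy replicate 2 lay below regular replicate 1.

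miR-23b-3p, the paralogue of miR-23a-3p in cluster b, was at 293.2, 243.5 and 294.6 CPM in soy, against 282.7, 292.8 and 248.5 CPM in regular livers, so that the groups covered nearly the same range. miR-24-3p was at 241.8, 229.8 and 241.7 CPM in soy, against 252.7, 214.8 and 164.7 CPM in regular livers. Its highest and its lowest values were both in regular livers, and its coefficient of variation was 2.92% in soy and 21.0% in regular livers, where counting error at its lowest count gives 3.12%.

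Among the passengers, miR-24-2-5p stood out by its level. It was at 215.7, 182.6 and 178.7 CPM in soy, against 150.0, 189.9 and 138.7 CPM in regular livers, and the groups overlapped through regular replicate 2. miR-27b-5p, the passenger of the dominant guide, was at 39.1, 20.7 and 26.5 CPM in soy, against 18.3, 34.4 and 27.7 CPM in regular livers, with no separation of the groups.

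The last passengers were near the limit of detection. miR-27a-5p had 59, 32 and 28 reads in soy, against 6, 9 and 16 reads in regular livers. miR-24-1-5p had 18, 22 and 61 reads in soy, against 8, 4 and 17 reads in regular livers. For both strands every soy library held more reads than any regular library, but the shallow regular replicate 3 held the most reads of its group. In CPM, miR-27a-5p stayed apart by a small margin (lowest soy liver 2.80, highest regular liver 2.56), and miR-24-1-5p overlapped (1.46 against 2.72). miR-23b-5p had 1 read in soy replicate 1 and 0 in every other library, and in those libraries a count of 0 leaves room for a level of 0.293 to 0.480 CPM, depending on the library (the value of 3 reads), so this strand could hardly be measured at this depth.

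The order of the levels was firm at some steps only. miR-27b-3p was above miR-27a-3p, and miR-27a-3p above miR-23b-3p, in 6 of 6 libraries with no overlap of their ranges. The neighbours miR-23b-3p, miR-23a-3p, miR-24-3p and miR-24-2-5p overlapped from one to the next, and miR-23b-3p was above miR-23a-3p in 4 of 6 libraries. miR-24-2-5p was 6.33 times above miR-27b-5p, and miR-27b-5p 11.2 times above miR-27a-5p, each with no overlap, whereas miR-27a-5p and miR-24-1-5p could not be ordered (3 of 6 libraries each way). The strands with a printed sequence are 21 to 23 bases long, and levels were not divided by length. Whether reads per molecule are alike between sequences was not tested.

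Strands of a common cluster were far from equal. miR-27b-3p had 69.1 to 87.8 reads in soy and 62.0 to 86.4 reads in regular livers for each read of miR-23b-3p, whose hairpin lies 154 bases upstream. In cluster a the corresponding ratio of miR-27a-3p to miR-23a-3p was 1.37 to 1.86 in soy and 1.56 to 1.69 in regular livers. miR-27b-3p had 84.2 to 93.1 reads in soy and 79.9 to 130.5 in regular livers for each read of miR-24-3p, although the count of miR-24-3p joins both clusters.

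The arms of a hairpin also differed by hairpin. The guide miR-27b-3p had 561.3 to 1033 reads in soy and 528.2 to 1104 in regular livers for each read of miR-27b-5p. For Mir27a the guide-to-passenger ratio was 99.2 to 186.3 in soy and 138.4 to 738.8 in regular livers. By contrast miR-24-3p had only 1.12 to 1.35 reads in soy and 1.13 to 1.69 in regular livers for each read of miR-24-2-5p, so that the strand named as a passenger of Mir24-2 was within 1.69-fold of the guide from both miR-24 hairpins together. miR-24-2-5p had 29.2 to 147.3 reads in soy and 51.0 to 475.0 in regular livers for each read of miR-24-1-5p, the strand with the same seed from cluster b.

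The diet comparison asked whether any strand changed beyond the spread between mice. Of the 10 strands, 9 had at least 4 reads in at least 3 libraries and entered edgeR's quasi-likelihood test within a table of 437 microRNAs, and miR-23b-5p did not. By this test 0 of 9 were called (Benjamini-Hochberg adjusted p = 0.982 for each, over all 437 microRNAs), where 0.0% of all microRNAs tested were called. At an unadjusted p under 0.05 the count was 0 of 9, against 22 of 437 or 5.03% of all microRNAs tested. DESeq2, an alternative, called 2 microRNAs (0.458%), both lower in soy, and limma-voom 0, and none of them was a strand of this family. In bulk liver, fewer cells of a type and less microRNA per cell cannot be told apart.

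**Figure D2:**
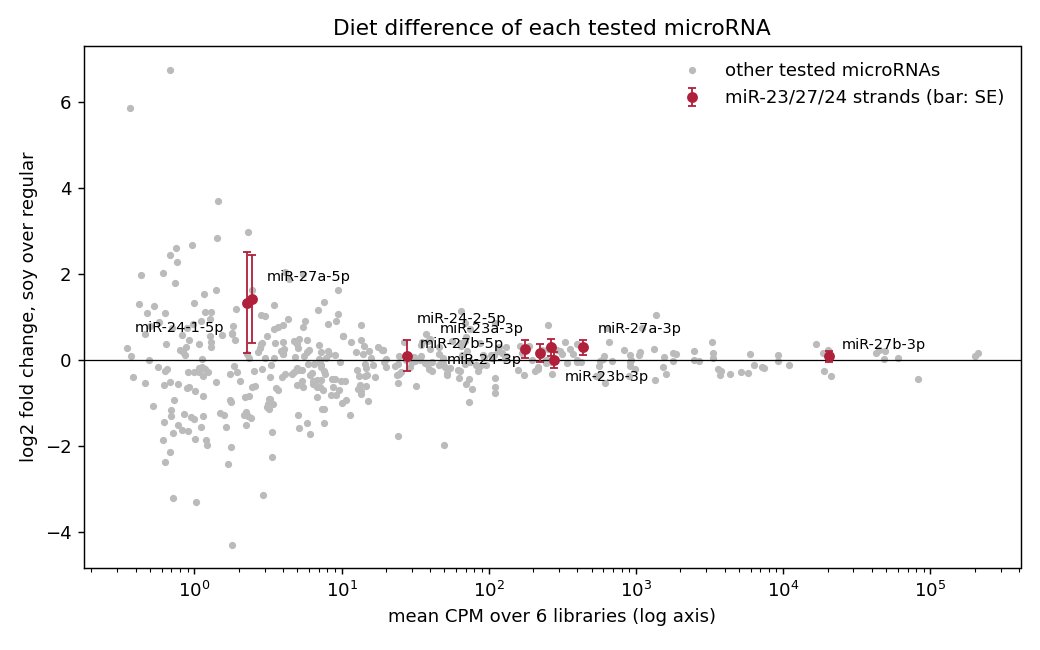
Log2 fold change (soy over regular) against mean CPM on a log axis for the 437 microRNAs tested, with the 9 strands of the family in red (bar: SE). The abundant strands lie between 0.01 and 0.30, and the wide bars of miR-27a-5p and miR-24-1-5p go with means near 2 CPM.

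The fitted differences of the guides were small. miR-27a-3p had the smallest p of the family, with 484.3 ± 34.8 CPM in soy livers and 392.8 ± 39.6 CPM in regular livers (SD, n = 3 each) and a log2 fold change of 0.30 ± 0.18 (SE), and it ranked 47th by p among the 437. miR-23a-3p averaged 293.4 ± 48.6 CPM in soy livers and 239.0 ± 25.1 CPM in regular livers, a log2 fold change of 0.30 ± 0.20 (SE). The other guides lay closer to 0. miR-24-3p averaged 237.8 ± 6.93 CPM in the soy group and 210.7 ± 44.2 CPM in the regular group (log2 fold change 0.17 ± 0.21 SE). miR-27b-3p averaged 21232 ± 815.5 CPM in the soy group and 19944 ± 1674 CPM in the regular group (0.09 ± 0.13 SE). These values overlapped, as did those of miR-23b-3p, which averaged 277.1 ± 29.1 CPM in the soy group and 274.7 ± 23.2 CPM in the regular group (0.01 ± 0.19 SE).

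For the passengers the error grew as the counts fell. miR-24-2-5p averaged 192.3 ± 20.3 CPM in soy livers and 159.5 ± 26.9 CPM in regular livers (soy over regular log2 fold change 0.27 ± 0.21 SE). miR-27b-5p averaged 28.8 ± 9.42 CPM in the soy group and 26.8 ± 8.09 CPM in the regular group (0.11 ± 0.36 SE). The difference of miR-24-2-5p was little larger than its error, and that of miR-27b-5p was smaller than its error. miR-27a-5p averaged 3.60 ± 1.06 CPM in the soy group and 1.35 ± 1.06 CPM in the regular group (1.42 ± 1.03 SE). miR-24-1-5p averaged 3.25 ± 2.5 CPM in the soy group and 1.30 ± 1.24 CPM in the regular group (1.33 ± 1.17 SE). The largest fitted differences of the family were on the strands with the fewest reads, where counting error alone is 40.8% of the value at 6 reads and 50.0% at 4 reads.

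The fitted log2 fold change was above 0 for 9 of 9 strands, against 212 of 437 or 48.5% of all microRNAs tested, and its median was 0.27 in the family and -0.02 over all microRNAs tested. MicroRNAs of all levels enter that share and that median, and neither was taken among microRNAs as abundant as these strands. The strands share loci, seeds and libraries, so they are not independent of each other, and none passed the test. The sign also rested on the scaling for miR-23b-3p, which was -0.038 with scaling by library totals alone. In CPM, 2 of 9 strands (miR-27a-3p and miR-27a-5p) had no overlap between the diets, both higher in soy, where 32 of 437 microRNAs or 7.32% did so in that direction and 12.8% in either. None of the 9 was lower in every soy liver, against 5.49% of all microRNAs tested. In unscaled reads, 3 of 9 (miR-24-1-5p as well) were higher in every soy library, against 11.0% of all. With libraries scaled by total reads alone (compared after seeing the data), where 11.9% of all microRNAs did not overlap, miR-27a-3p was the 1 strand left, because regular replicate 3 (2.79 CPM) then exceeded soy replicate 3 (2.75 CPM) for miR-27a-5p.

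**Figure D3:**
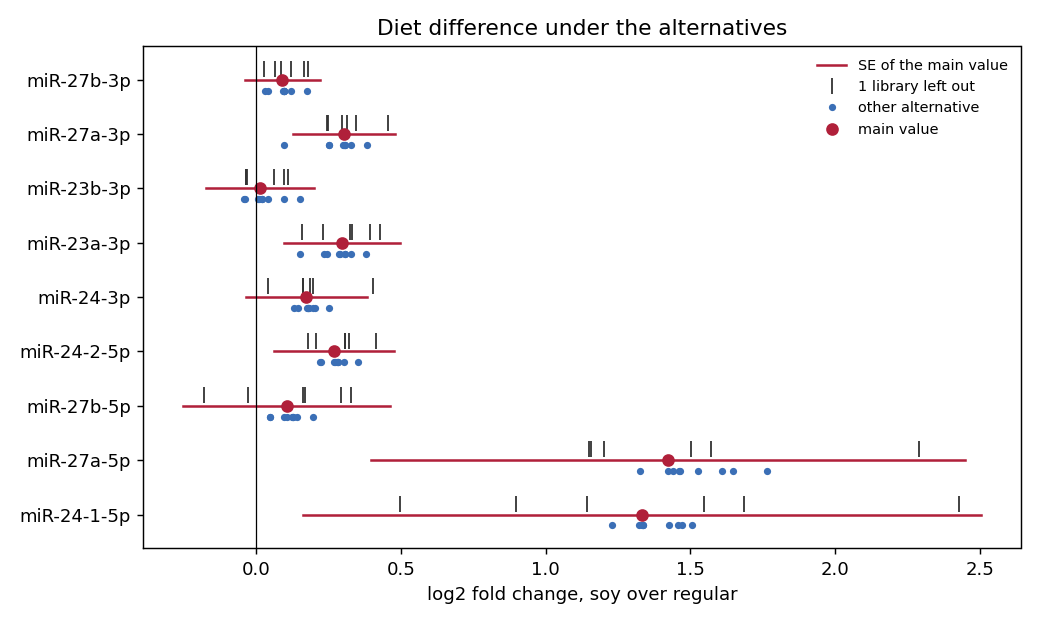
Log2 fold change (soy over regular) of each tested strand, with the main value and its SE in red, the values with 1 library left out as ticks, and all other alternatives as blue dots. miR-23b-3p and miR-27b-5p cross 0, whereas miR-27a-3p reaches 0.46 without regular replicate 1. Its lowest dot, 0.095, is the sum with miR-27b-3p, which holds nearly all reads of that sum.

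Leaving out 1 library moved these values by over 1.5 times for every tested strand. For miR-27a-3p the log2 fold change was 0.46 without regular replicate 1. For miR-23a-3p it was 0.16 without soy replicate 1. For miR-27b-3p it was 0.027 without regular replicate 2, 0.18 without regular replicate 1 and 0.16 without regular replicate 3. All 3 of these guides kept a positive fitted difference with any 1 library left out. For miR-24-2-5p it was 0.18 without soy replicate 1 and 0.41 without regular replicate 2. The sign changed for miR-23b-3p (lowest -0.035, without regular replicate 3) and for miR-27b-5p (-0.18 without soy replicate 1 and 0.33 without regular replicate 2). Without regular replicate 3, the log2 fold change of miR-24-3p was 0.040, and without regular replicate 1 it was 0.40. Without soy replicate 3, that of miR-24-1-5p was 0.50, and without regular replicate 3 it was 2.43. For miR-27a-5p it was 2.29 without regular replicate 3. No strand passed the test when a library was left out.

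Ratios within a library do not depend on how libraries are scaled to each other, and 6 ratios between strands were compared (log2 of the read ratio, with 0.5 reads added to each count). The ratio of miR-23a-3p to miR-23b-3p was 0.24, 0.05 and -0.07 in soy, against -0.14, -0.23 and -0.24 in regular livers. It was higher in every soy liver than in any regular liver, by 0.28 on average. This difference had p = 0.1 in a two-sided exact permutation test, the smallest p that 3 livers against 3 allow, and 0.6 after Benjamini-Hochberg adjustment over the 6 ratios. How the counting divided reads between these paralogues was not tested. Summed as 1 feature they had a log2 fold change of 0.15 ± 0.18 (SE).

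The ratio of miR-27a-3p to miR-27b-3p was -5.53, -5.56 and -5.28 in soy, against -5.54, -5.54 and -5.92 in regular livers (difference 0.21, exact permutation p = 0.4). It was nearly the same in soy replicates 1 and 2 and regular replicates 1 and 2, and the difference was 0.084 without regular replicate 3. The ratio of miR-24-2-5p to miR-24-1-5p was 7.16, 6.35 and 4.86 in soy, against 7.50, 8.72 and 5.63 in regular livers (difference -1.16, exact permutation p = 0.4). Replicate 3 of either diet had the lowest value, and miR-24-1-5p had 4 to 61 reads in all libraries. The difference was -0.44 without regular replicate 2 and -1.98 without regular replicate 3.

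**Figure D4:**
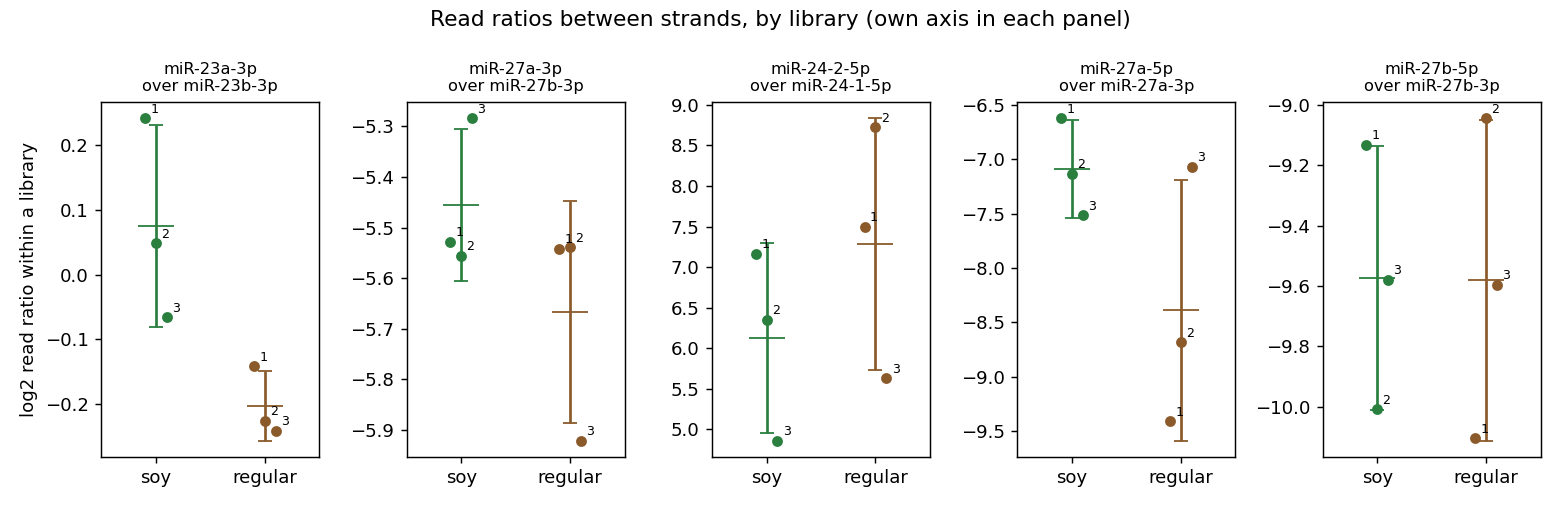
Log2 read ratio between a pair of strands in each library, with soy left of regular, replicate numbers beside the dots, and the mean ± SD of each group (n = 3). Only the ratio of miR-23a-3p to miR-23b-3p has no overlap between the diets among the 5 ratios drawn (exact permutation p = 0.1, 0.6 after adjustment), and each panel has its own axis.

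The balance of passenger to guide overlapped between the diets. For Mir27a it was -6.62, -7.13 and -7.52 in soy, against -9.41, -8.68 and -7.07 in regular livers (difference 1.30, exact permutation p = 0.3). Regular replicate 3 lay inside the soy range, and the other regular livers lay below it. The difference was 0.79 without regular replicate 1 and 1.96 without regular replicate 3. For Mir27b it averaged -9.57 ± 0.44 in soy and -9.58 ± 0.53 in regular livers (SD, n = 3 each; exact permutation p = 0.9). For Mir23b, where the passenger had a single read, the difference was 0.20 (exact permutation p = 0.7) with 0.5 reads added to each count and -0.24 with 5 reads added.

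Between livers, miR-27b-3p and miR-23b-3p were steady relative to other microRNAs. The SD of log2 CPM over the 6 libraries, with 0.5 CPM added to each value, was 0.099 for miR-27b-3p and 0.13 for miR-23b-3p. Only 1.14% and 2.29% of the tested microRNAs had a smaller one, in a comparison that includes microRNAs of few reads. For miR-27a-3p, miR-24-3p, miR-24-2-5p and miR-23a-3p it was 0.20, 0.23, 0.23 and 0.24. All of these 6 lay below 0.246, the median of the 109 tested microRNAs with a mean of at least 100 CPM, miR-23a-3p (0.237) only just. The low passengers were more variable, at 0.88 for miR-27a-5p and 1.02 for miR-24-1-5p, above the median of 0.57 over all microRNAs tested. The added 0.5 CPM lowers the SD of such weak strands, which was 1.17 for miR-27a-5p and 1.39 for miR-24-1-5p without it.

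**Figure D5:**
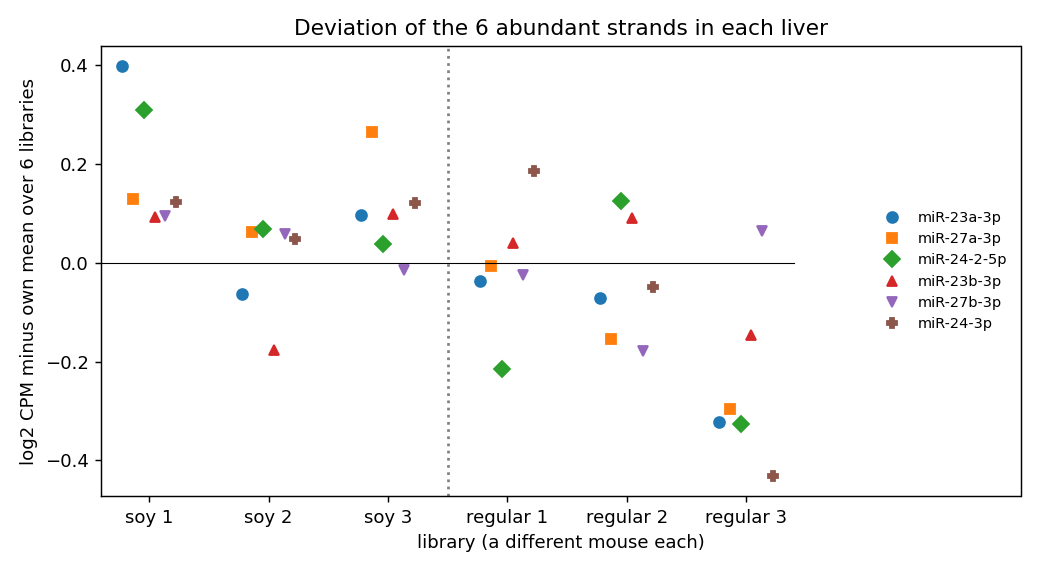
Log2 CPM of the 6 abundant strands minus each strand's own mean over the 6 libraries, with soy left of the dotted line and regular right of it. In regular replicate 3, 5 of the 6 strands lie below their mean (lowest -0.43, miR-24-3p), whereas miR-27b-3p lies 0.064 above its own, and all 6 lie above their mean in soy replicate 1.

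Regular replicate 3 was the liver in which the strands parted most. There 4 of the 6 abundant strands had their lowest TMM-scaled level of any library, whereas miR-27b-3p had its second highest. These ranks depended on the scaling. With total reads alone, miR-23a-3p (229.4 CPM) and miR-24-3p (179.7 CPM) were still lowest there. miR-27a-3p (386.6 CPM, against 378.6 in regular replicate 2) and miR-24-2-5p (151.4 CPM, against 149.8 in regular replicate 1) then were not, and miR-27b-3p was highest (23437 CPM). For each read of miR-27a-3p, soy livers held 38.9 to 47.1 reads of miR-27b-3p, against 46.5 and 46.6 in regular replicates 2 and 1 and 60.6 in regular replicate 3. It was also the shallowest library, and the part of its depth in these values was not tested.

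The microRNAs whose pattern over the 6 libraries was most like that of miR-27b-3p and of miR-27a-3p were found by the root-mean-square difference of log2 CPM, each centred on its own mean, among 103 microRNAs outside the family with a mean of at least 100 CPM. For miR-27b-3p they were miR-107-3p (0.096), a microRNA tied to insulin sensitivity, miR-22-3p (0.11), the most abundant in this table, and miR-148b-3p (0.13), where the median over the 103 was 0.25. miR-27b-3p itself deviated from its mean by only 0.091, so these are microRNAs that, like it, hardly varied. For miR-27a-3p they were miR-676-3p (0.092), the endothelial miR-126a-5p (0.096) and miR-93-5p (0.11) of the miR-106b cluster, where the median was 0.28 and its own deviation 0.18.

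Markers of other liver cell types were set beside these values. Endothelial microRNAs summed to 20185 to 21167 CPM in soy livers and 14584 to 17998 CPM in regular livers, and leukocyte and Kupffer cell microRNAs to 2706 to 3550 CPM in soy livers and 2067 to 2368 CPM in regular livers, so both sums were higher in every soy liver, as miR-27a-3p was. Of 3 endothelial markers, 1 had a positive and 2 a negative fitted difference: the level of miR-126a-5p averaged 18885 ± 310.6 CPM over the soy livers and 14617 ± 1493 CPM over the regular ones, but that of miR-126a-3p, of the same hairpin, 1769 ± 188.1 CPM over the soy livers and 1781 ± 289.3 CPM over the regular ones. Of 6 leukocyte markers, 5 were positive and 1 negative, with miR-146a-5p at 1449 ± 163.3 CPM in soy livers and 1214 ± 187.9 CPM in regular livers and miR-142a-5p at 1383 ± 283.0 CPM in the soy group and 820.2 ± 301.6 CPM in the regular group. The negative marker was miR-142a-3p, of the same hairpin as miR-142a-5p, at 46.1 ± 28.1 CPM in soy livers and 48.4 ± 21.6 CPM in regular livers. The summed mesenchymal markers (18583 to 24855 CPM in soy livers and 15824 to 23677 CPM in regular livers, led by miR-143-3p and miR-199a-5p) overlapped, with 2 of 4 positive and 2 negative. Among them miR-145a-5p, named after its values were seen, was lower in every soy liver, at 49.6 ± 4.96 CPM in the soy group and 96.6 ± 11.2 CPM in the regular group (log2 fold change -0.96 ± 0.22 SE, adjusted p = 0.295 in edgeR). The paper lists miR-145a-5p and miR-455-3p as changed, both with a positive log2 fold change in soy-fed livers and a rise by qRT-PCR. In edgeR the fitted difference of miR-455-3p, which is in none of these marker lists, was negative too. Its log2 fold change was -1.98 ± 0.41 (SE, adjusted p = 0.295 in edgeR). The sign was thus opposite to that in the paper for both microRNAs. Diets here follow the sample labels, and every difference between soy and regular livers given here rests on them. The reason for the opposite signs was not tested. The summed erythroid markers (1216 to 1256 CPM in the soy group and 718.0 to 1636 CPM in the regular group, led by miR-451a and miR-144-3p) overlapped as well, with 2 of 3 positive and 1 negative. Of the 5 hepatocyte markers, 2 had a positive and 3 a negative fitted difference. No marker passed edgeR's test, and the part of these cell types in the values of miR-27a-3p was not tested.

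Other products of the same loci were rare. miR-3074-5p, read from the opposite strand of the miR-24 hairpins and complementary to miR-24-3p over 20 of its 22 bases, had 34, 69 and 27 reads in soy, against 0, 15 and 0 reads in regular livers. Its level was higher in every soy liver (4.11 ± 2.39 CPM in soy livers and 0.50 ± 0.87 CPM in regular livers, SD, n = 3 each), as for 7.32% of all microRNAs tested. miR-3074-5p met the filter of 4 reads in 3 libraries only through the soy livers, so the filter itself favoured this direction. It did not pass edgeR's test (log2 fold change 2.97 ± 1.61 SE, which depends on the prior count where libraries are at 0, adjusted p = 0.982), and whether the reads were assigned by strand is not given in the sources used here. miR-3074-1-3p had 13 reads in soy replicate 3 and 0 elsewhere, miR-23a-5p had 9 reads in regular replicate 2 and 0 elsewhere, and miR-3074-2-3p had 0 in every library.

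Finally, the family was set beside 25 other microRNAs known for the control of lipids in liver, such as miR-33, miR-378a and miR-30c. Of the 24 that could be tested, 15 had a positive and 9 a negative log2 fold change, with a median of 0.15 (-0.02 over all microRNAs tested). Of these, 2 did not overlap between the diets, against 12.8% of all, and 0 were called by edgeR. The most abundant was miR-148a-3p, at 70060 ± 5031 CPM in soy livers and 94764 ± 17732 CPM in regular livers (soy over regular log2 fold change -0.44 ± 0.15 SE), which also had the smallest p of the list (adjusted p = 0.728 in edgeR). miR-21a-5p, the next, was at 52933 ± 11604 CPM in soy livers and 45541 ± 9081 CPM in regular livers (0.22 ± 0.19 SE).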

How the data were processed

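Liver small RNA of 6 mice was made into TruSeq libraries and read as single ends of 75 bp, per the labels. The authors assigned reads to mature microRNAs, and the sources used here do not name the aligner, genome build or miRBase release. The deposited counts are whole reads per mature microRNA (1907 names), not normalized. The deposited log2 table, an alternative here, is absent where a count was below 4 reads, and its values equal the log2 of counts scaled by library totals, whereas the study's methods name DESeq2 scaling. All sample columns matched a label.

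Libraries were grouped by diet. The 437 microRNAs that reached 4 reads in 3 or more libraries were tested on the counts with edgeR 4.0.16 in R 4.3.3 (TMM scaling, quasi-likelihood test, Benjamini-Hochberg threshold 0.05). The study names DESeq2 and no covariate, and DESeq2 1.42.0 and limma 3.58.1 were alternatives, beside other scalings, filters, libraries left out and paralogues summed. Differences in ratios were judged by exact permutation, two-sided. Library pairs within a group correlated at 0.916 to 0.954 over microRNAs, with a chi-square of at least 253.2 per degree of freedom, so none looked like a library deposited again. Limits from a count of 0 cover counting error only, since no molecular identifiers were used. The edgeR step was tested on simulated data.

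All 10 strands were described. Beside them stood the 3 microRNAs nearest to the most abundant strand and to that of smallest p, products of the same hairpins, the 2 most abundant of each marker list, and the 2 most abundant and the smallest p of the lipid list. The strands were taken by name, without use of a measured value. Earlier results of these data were already known when strands, lists and ratios were chosen.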

Additional observations from a re-analysis of the deposited data

How the results depend on the processing

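The count of microRNAs called over the whole table was 0 in the main test and in 12 of 15 alternatives. It was 2 with DESeq2, 8 with no filter on low counts and 5 with the replicate number as a block (replicate block), and none of these was a strand of the miR-23/27/24 family. The replicate numbers of the labels were not taken to pair livers of the 2 diets, since same-numbered libraries deviated together at correlations of 0.032, -0.10 and 0.0037. With a library left out the count stayed at 0.

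For the 9 tested strands, 135 values were recomputed and 128 kept the direction and the side of the threshold. The value of summed paralogues is counted for each strand of its pair. The lowest adjusted p of any strand was 0.59. The exceptions were miR-23b-3p, at -0.042 in limma on the deposited log2 values and -0.038 in edgeR with scaling by total reads alone (both scale by library totals), and -0.035 to 0.11 with a library left out, and miR-27b-5p, at -0.18 to 0.33 with a library left out (below 0 without soy replicate 1 or regular replicate 1). Among the ratios, that of miR-23b-5p to miR-23b-3p was -0.24 with 5 reads added and -0.18 to 0.50 with a library left out, and could not be computed with 0 reads added. That of miR-27b-5p to miR-27b-3p was -0.25 to 0.28 with a library left out. The ratio of miR-23a-3p to miR-23b-3p kept its sign, at 0.19 to 0.35 with a library left out and 0.28 under the block. The cause of these moves was not tested. miR-27a-5p and miR-24-1-5p rested on as few as 6 and 4 reads in a library, and miR-23b-5p on 1 read in all.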
